A study of Mus musculus with 15 samples.

Results

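Inflammasome and pyroptosis genes were examined in RAW 264.7 cells, a mouse macrophage line, after loading with 4 kinds of silica nanoparticles (SNPs). The 10 genes were Nlrp3, Nlrc4, Aim2, Pycard, Nek7, Casp1, Casp4, Gsdmd, Il1b and Il18. They were found by symbol in a raw count table of 57186 genes, and 9 of them were among the 19839 genes with enough counts to test. Pycard was not among them, since it had 0 counts in all 15 libraries.

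There were 5 groups of 3 libraries each, and every group consisted of the same cell line in RPMI medium with fetal bovine serum. The SNP100-treated group received nonporous particles of nominally 100 nm at 50 µg/mL, and the SNP50-treated group received nonporous particles of nominally 50 nm at 25 µg/mL. The MSNP-treated group received mesoporous particles of nominally 100 nm at 200 µg/mL, and the HMSNP-treated group received hollow mesoporous particles of the same nominal size at the same dose. All 4 exposures lasted 6 h, and the nontreated controls received no particles. The paper gives each dose as the maximum nontoxic concentration of that particle. Only the MSNP and HMSNP groups shared a dose, by mass, so differences between the other treated groups mix particle type with amount. The paper describes HMSNPs as low in density with a distinct surface, and particle numbers and uptake are not compared here. Library names begin with a different number in each group, and the labels do not say what it stands for, so it cannot be told apart from treatment. Nothing in the labels says that libraries of a group came from separate cultures. The p-values therefore measure only the spread between these libraries, which may be technical. That spread was fitted for each gene over all 15 libraries together. Tests against the controls, whose replicates differed most, thus also draw on the closer agreement within the treated groups. RAW 264.7 is a transformed line, not a population of primary macrophages.

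An inflammasome is a protein complex that assembles around a sensor such as NLRP3, NLRC4 or AIM2. Many sensors recruit caspase-1 through the adaptor ASC, the product of Pycard, and NEK7 is a binding partner that NLRP3 needs. Active caspase-1 cuts the precursors of IL-1β and IL-18, and caspase-1 and mouse caspase-11, which is encoded by Casp4, cut gasdermin D, whose fragments form pores in the membrane. Crystalline and particulate silica are classic NLRP3 activators in macrophages, and RAW 264.7 cells are known for lacking ASC. The assembly and cutting steps act on proteins and are not seen in RNA, so the values below are transcript levels only.

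Counts per library summed to between 29369934 and 42617812. Levels are given as CPM, counts scaled to a common library size, with TMM factors, and changes are log2 fold changes with standard errors (SE) from edgeR's quasi-likelihood test. A gene was said to rise or fall when its Benjamini-Hochberg adjusted p, over all 19839 genes, was under 0.05. All 8 macrophage markers were present in every library, from Mertk at 3.05 to 8.93 CPM to Lyz2 at 8928 to 15071 CPM. Of 14 markers of other cell types none exceeded 16 counts, and Col1a2, Epcam and Ly6g were at 0 in every library. Control replicate 3 stood apart. Its counts differed from those of the other 2 controls by a mean chi-square per gene of 174 and 205, against 66.2 between those controls and 4.58 to 13.9 between replicates of any treated group. Its deviation followed exon length, from a median of 0.61 on the log2 scale in the 1066 shortest genes to -0.60 in the 1066 longest. For the 9 tested genes, a call against the controls that changed without this library is given with its value. In bulk RNA, fewer cells of a kind and less RNA per cell cannot be told apart.

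**Figure D1:**
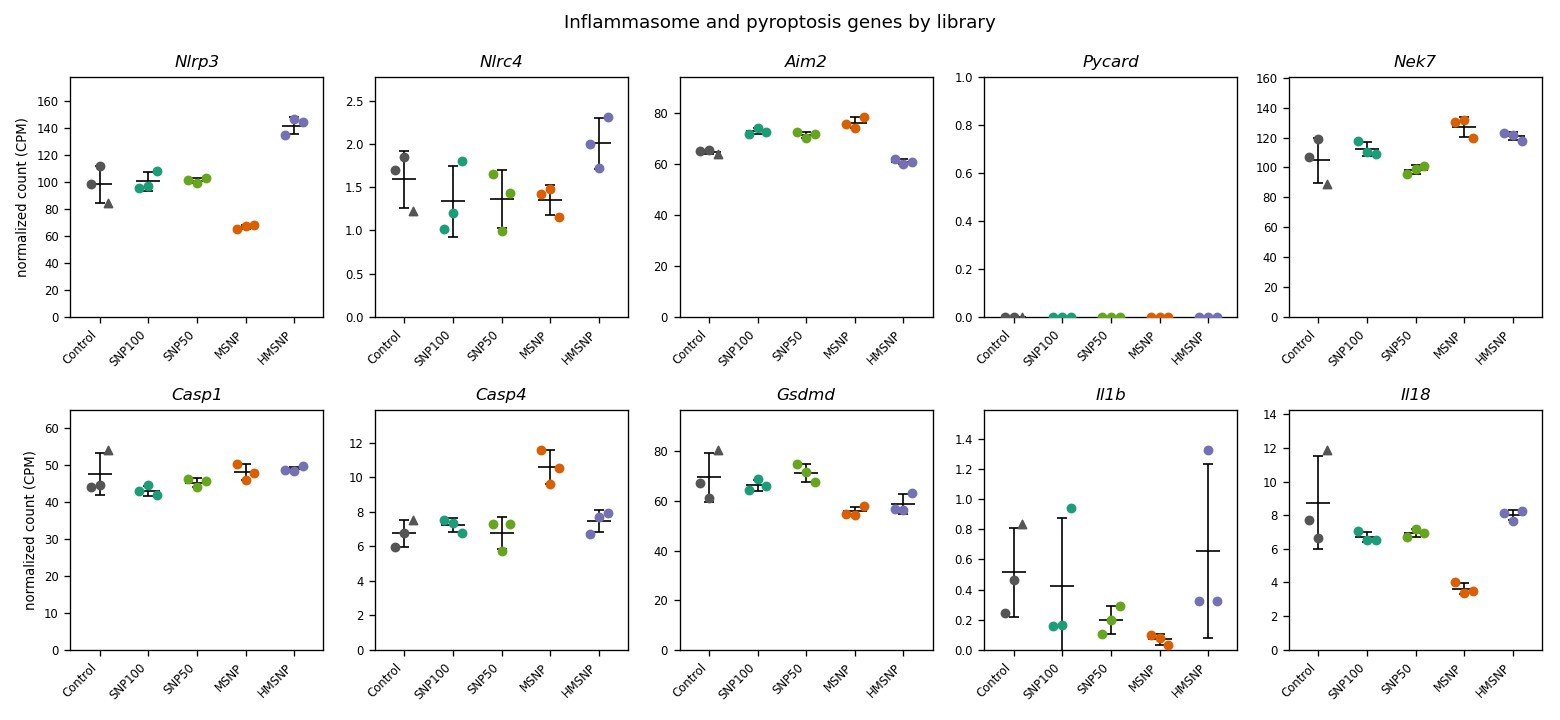
Level of each of the 10 genes in every library, in CPM on a linear axis that starts at 0, by group. Points are libraries, the triangle is Control replicate 3, and bars give the mean ± SD of 3 libraries, cut at 0 for Il1b. The 3 MSNP libraries lie below all other libraries for Nlrp3 (65.1 to 67.8 CPM) and Il18 (3.37 to 3.999 CPM) and above all others for Casp4 (9.61 to 11.6 CPM), while the HMSNP libraries are highest for Nlrp3 (134 to 146 CPM), and every Pycard point is at 0.

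Nlrp3, Casp4 and Il18 had the largest called changes against the controls, and Pycard had no counts, so the 250 bases before the annotated main start of these 4 genes are shown for context. They were read from GRCm39 on the strand of the gene, and capitals mark matches to a kB-like pattern, GGG and CC separated by any 5 bases, on either strand.
Nlrp3, chr11:59433262-59433511, plus strand: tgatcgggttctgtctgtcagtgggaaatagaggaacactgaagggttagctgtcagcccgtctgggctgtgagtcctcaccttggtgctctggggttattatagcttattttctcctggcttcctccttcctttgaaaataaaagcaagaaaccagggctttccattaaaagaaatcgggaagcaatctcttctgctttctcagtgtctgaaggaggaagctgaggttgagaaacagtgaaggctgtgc
Casp4, chr9:5308593-5308842, plus strand: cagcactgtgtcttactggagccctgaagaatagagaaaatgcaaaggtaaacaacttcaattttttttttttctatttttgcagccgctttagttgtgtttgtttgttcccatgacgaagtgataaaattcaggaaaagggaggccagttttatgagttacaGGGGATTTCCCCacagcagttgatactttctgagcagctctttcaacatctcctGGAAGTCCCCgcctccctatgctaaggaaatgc
Il18, chr9:50476424-50476673, plus strand: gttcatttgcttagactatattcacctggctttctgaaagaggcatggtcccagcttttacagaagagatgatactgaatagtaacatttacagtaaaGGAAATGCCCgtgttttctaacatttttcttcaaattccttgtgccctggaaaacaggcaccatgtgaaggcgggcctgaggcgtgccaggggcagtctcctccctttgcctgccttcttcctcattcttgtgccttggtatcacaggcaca
Pycard, chr7:127593040-127593289, minus strand: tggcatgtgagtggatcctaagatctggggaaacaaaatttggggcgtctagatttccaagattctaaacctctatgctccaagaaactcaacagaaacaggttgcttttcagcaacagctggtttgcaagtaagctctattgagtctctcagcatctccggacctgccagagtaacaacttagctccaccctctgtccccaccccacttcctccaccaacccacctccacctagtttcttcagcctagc
The pattern occurred in 47.8% of 21770 promoters of protein-coding genes in windows of the same length. Casp4 held 5 matches, of which 4 overlapped one another with first bases 87, 86, 86 and 85 bases before the start and the fifth began 33 bases before it. Il18 held 1 match, 152 bases before the start, and Nlrp3 and Pycard held none. None of these 4 windows held an AP-1 pattern (TGANTCA, in 6.17% of promoters), an interferon pattern (GAAA repeated after any 2 bases, 3.32%) or the E-box TCACGTGA (0.753%), each searched on both strands. The windows had 2 or 3 CpG each, against a median of 8, and a GC content of 42.0% to 48.8%, against a median of 53.2%. These are matches of letters and not binding sites.

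The genes differed widely in level before any treatment. Per kilobase of exon, the controls held 24.2 ± 3.41 CPM of Nlrp3 and 23.2 ± 3.29 CPM of Gsdmd (SD, n = 3), more than 88.3% and 87.6% of 13135 tested protein-coding genes. Casp1 followed at 15.2 ± 1.81 CPM per kilobase, Nek7 at 10.6 ± 1.53 and Aim2 at 9.86 ± 0.108 (SD, n = 3). Il18 at 2.91 ± 0.916 and Casp4 at 1.28 ± 0.146 CPM per kilobase were in the lower part, above 44.5% and 32.1% of those genes. Nlrc4 and Il1b were lowest among those detected, at 0.329 ± 0.0679 and 0.197 ± 0.115 CPM per kilobase. The sensor Nlrp3, the caspase-1 and gasdermin D transcripts and Nek7 were thus well covered, whereas the IL-1β transcript was near the limit of counting, with 8, 16 and 32 counts in the 3 controls.

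Among the sensors, Nlrp3 moved in opposite directions under the mesoporous and the hollow particles. This gene (ENSMUSG00000032691) lies on the plus strand of chromosome 11 from 59432394 to 59457782. Its level was 98.2, 112 and 84.3 CPM in control replicates 1, 2 and 3. The MSNP libraries held 65.1, 66.9 and 67.8 CPM and the HMSNP libraries 134, 146 and 144 CPM. Every MSNP library was below and every HMSNP library above all controls. Against the controls Nlrp3 fell by 0.56 on the log2 scale with MSNPs (SE 0.0886, edgeR adjusted p = 0.000225) and rose by 0.53 with HMSNPs (SE 0.0882, adjusted p = 0.00237). These values were -0.65 and 0.43 without Control replicate 3, and both stayed past the threshold. The call under HMSNPs was lost when only the 6 libraries of that comparison were fitted (adjusted p = 0.199). The SNP100 libraries at 95.5, 97.0 and 108 CPM and the SNP50 libraries at 101, 98.9 and 103 CPM lay within the range of the controls. Their log2 fold changes were 0.03 (95% interval -0.16 to 0.22) and 0.04 (-0.15 to 0.23), and without Control replicate 3 they turned to -0.07 and -0.06, neither being called.

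Aim2 encodes a sensor of DNA in the cytosol, and its gene (ENSMUSG00000037860) lies on the plus strand of chromosome 1 from 173178445 to 173293930. Its libraries agreed closely, with 65.0, 65.4 and 64.0 CPM in the controls. It was at 75.9, 74.1 and 78.5 CPM in the MSNP libraries and at 62.0, 59.9 and 60.8 CPM in the HMSNP libraries. The SNP100 libraries held 71.8, 74.3 and 72.8 CPM and the SNP50 libraries 72.6, 70.1 and 71.7 CPM, so that no treated library overlapped the controls. Aim2 rose with MSNPs by 0.23 (SE 0.0536, edgeR adjusted p = 0.00488). This call was lost in a fit of those 6 libraries alone (adjusted p = 0.137). The differences of 0.17 with SNP100 (adjusted p = 0.211), 0.14 with SNP50 (0.287) and -0.09 with HMSNPs (0.315) did not pass. The values for SNP100 and SNP50 became 0.16 and 0.13 without Control replicate 3 and then passed, at adjusted p = 0.0377 and 0.0475.

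Nlrc4, the sensor paired with NAIP proteins that bind bacterial proteins, was low and its groups overlapped. The gene (ENSMUSG00000039193) lies on the minus strand of chromosome 17 from 74732433 to 74766165. It held 1.71, 1.85 and 1.22 CPM in the controls, 1.42, 1.48 and 1.156 CPM in the MSNP libraries and 1.998, 1.72 and 2.31 CPM in the HMSNP libraries. Counts were 35 to 101 per library, and no comparison with the controls passed, the log2 differences being -0.25 with SNP100, -0.23 with SNP50, -0.23 with MSNPs and 0.34 with HMSNPs. For the last the 95% interval ran from -0.15 to 0.84, and the value was 0.18 without Control replicate 3. Exons of Slc30a6 on the other strand cover 17.9% of the Nlrc4 exons, and the use of strand in counting is not given in the sources used here, so its level is uncertain.

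The adaptor gene Pycard (ENSMUSG00000030793, chromosome 7, minus strand, 127588558 to 127593039) had no count among 529697881 counts over the 15 libraries. For a count of 0 in a library, 3 counts were taken as the upper limit, which is 0.0687 to 0.101 CPM here. This is an approximate 95% bound and covers counting error only. No particle brought the transcript above that limit in any library.

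Nek7, the NLRP3 partner (ENSMUSG00000026393, chromosome 1, minus strand, 138410613 to 138550306), was highest in the MSNP libraries. They held 130.3, 131 and 119.6 CPM, the HMSNP libraries 123, 122 and 118 CPM, and the controls 107, 119 and 88.7 CPM. All MSNP libraries were above all controls, but the HMSNP libraries were not. The rise with MSNPs was 0.28 (SE 0.0877, edgeR adjusted p = 0.032), and it was 0.18 without Control replicate 3 (adjusted p = 0.0271). The call did not hold when MSNP replicate 1 or 2 was left out (adjusted p = 0.105 and 0.122), nor without Control replicate 1 (0.0541), SNP100 replicate 1 (0.0517) or 2 (0.0575), SNP50 replicate 3 (0.0579) or HMSNP replicate 1 (0.0554), nor with 6 libraries (0.22). With HMSNPs the log2 difference was 0.21 (adjusted p = 0.172), and it passed without Control replicate 2, at 0.33 (0.0146). The SNP100 libraries at 117, 110.0 and 109 CPM gave 0.10, and the SNP50 libraries at 95.4, 98.9 and 101 CPM gave -0.09. The SNP50 value became -0.20 (adjusted p = 0.0229) without Control replicate 3, the control in which this long transcript was lowest.

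**Figure D2:**
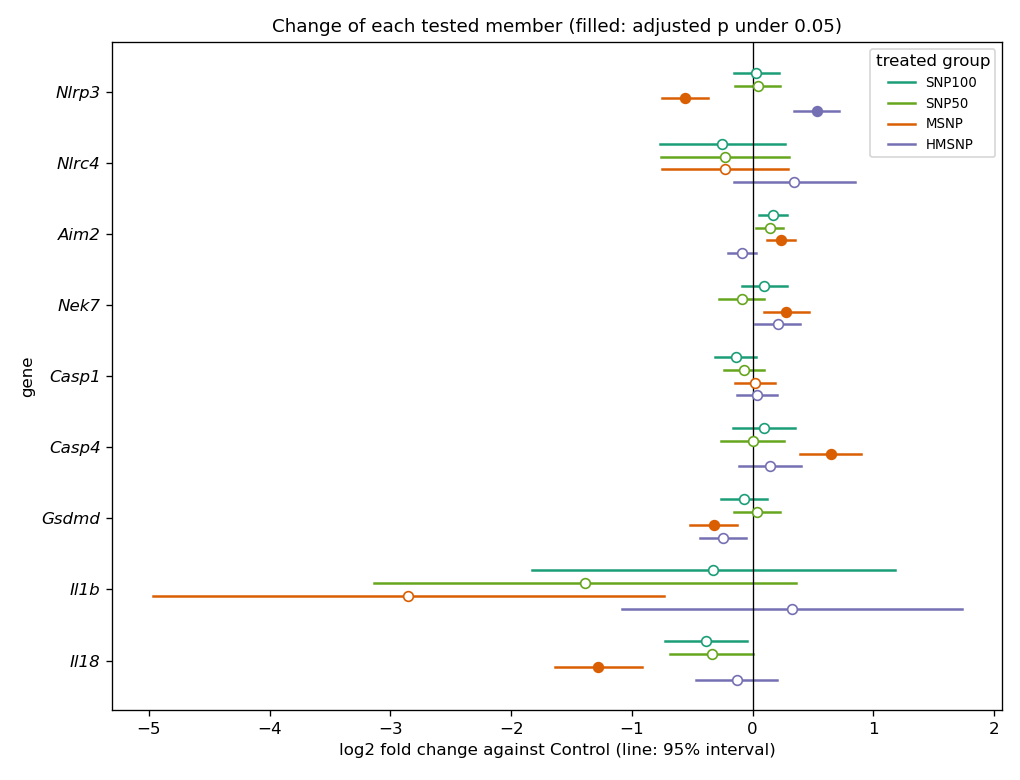
Log2 fold change of the 9 tested genes in each of the 4 treated groups against the nontreated controls, on the x axis, with genes on the y axis. Lines are 95% intervals and filled points passed an adjusted p of 0.05. Of the filled points 6 belong to MSNPs, with 3 on either side of 0, and 1 belongs to HMSNPs, Nlrp3 at 0.53. The wide intervals of Il1b rest on few counts.

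The 2 caspase genes are neighbours on chromosome 9 and behaved differently under MSNPs. Casp1 (ENSMUSG00000025888, plus strand, 5298508 to 5307290) held 44.0, 44.6 and 54.1 CPM in the controls, 50.5, 46.0 and 47.9 CPM in the MSNP libraries and 48.6, 48.4 and 49.7 CPM in the HMSNP libraries. The SNP100 libraries were at 42.9, 44.6 and 41.9 CPM and the SNP50 libraries at 46.2, 44.0 and 45.7 CPM. The ranges of all 4 treated groups overlapped that of the controls. The log2 differences were -0.14 with SNP100, -0.07 with SNP50, 0.02 with MSNPs (95% interval -0.15 to 0.18) and 0.04 with HMSNPs (-0.13 to 0.21), and none passed. Without Control replicate 3, whose 54.1 CPM was the highest value of all, the MSNP and HMSNP values became 0.13 and 0.14 (adjusted p = 0.0587 and 0.0829).

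Casp4 (ENSMUSG00000033538, plus strand, 5308828 to 5336783) encodes caspase-11, which senses lipopolysaccharide in the cytosol. It was at 5.97, 6.77 and 7.50 CPM in the controls and at 11.6, 9.61 and 10.6 CPM in the MSNP libraries, with no overlap. It rose with MSNPs by 0.65 (SE 0.119, edgeR adjusted p = 0.00086). It was 0.74 without Control replicate 3, and the call held in every alternative run, from DESeq2 to leaving out each library. The HMSNP libraries at 6.73, 7.66 and 7.95 CPM, the SNP100 libraries at 7.54, 7.35 and 6.76 CPM and the SNP50 libraries at 7.29, 5.73 and 7.30 CPM stayed close to the controls. Their log2 differences of 0.14, 0.10 and 0.00 did not pass. Its promoter window is shown above, and whether the kB-like matches there bear on this rise was not tested.

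Gsdmd encodes gasdermin D, the pore-forming substrate of both caspases (ENSMUSG00000022575, chromosome 15, plus strand, 75733974 to 75739257). It held 67.2, 61.2 and 80.5 CPM in the controls, against 54.9, 54.4 and 57.9 CPM in the MSNP libraries and 56.8, 56.3 and 63.4 CPM in the HMSNP libraries. The MSNP libraries were all below the controls, and HMSNP replicate 3 was above control replicate 2. Gsdmd fell by 0.32 with MSNPs (SE 0.0905, edgeR adjusted p = 0.0178), or by 0.20 without Control replicate 3 (adjusted p = 0.0195). The call was lost without MSNP replicate 1 or 2 (adjusted p = 0.0629 and 0.062) and with only 6 libraries (0.153). With HMSNPs the difference of -0.24 did not pass (adjusted p = 0.128), but it was -0.31 and passed without Control replicate 2 (0.0177) and was -0.13 without Control replicate 3. The SNP100 libraries at 64.2, 68.7 and 65.9 CPM and the SNP50 libraries at 74.9, 71.7 and 67.6 CPM gave -0.07 and 0.04. An antisense gene, Gm62577, covers 9.42% of its exons.

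Of the cytokine genes, Il18 fell and Il1b was scarcely detected. Il18 (ENSMUSG00000039217, chromosome 9, plus strand, 50466081 to 50493633) was at 7.73, 6.65 and 11.9 CPM in the controls and at 3.999, 3.37 and 3.50 CPM in the MSNP libraries, all of which were below every other library. The fall with MSNPs was 1.28 on the log2 scale (log2 fold change -1.28, SE 0.168, edgeR adjusted p = 3.6e-05). It was smaller, -0.98, without Control replicate 3, and was called in every alternative. The HMSNP libraries held 8.11, 7.66 and 8.23 CPM, within the range of the controls, and their log2 difference of -0.13 turned to 0.15 without that control, neither being called. The SNP100 libraries held 7.05, 6.53 and 6.54 CPM and the SNP50 libraries 6.72, 7.17 and 6.91 CPM. Their differences of -0.39 (unadjusted p = 0.0284 and adjusted p = 0.402, edgeR) and -0.34 did not pass and shrank to -0.10 and -0.06 without Control replicate 3.

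Il1b (ENSMUSG00000027398, chromosome 2, minus strand, 129206490 to 129213059) had 8, 16 and 32 counts in the controls, 6, 6 and 34 in the SNP100 libraries and 3, 7 and 9 in the SNP50 libraries. The MSNP libraries had 3, 3 and 1 counts and the HMSNP libraries 11, 50 and 14. Single libraries, SNP100 replicate 3 and HMSNP replicate 2, exceeded their group mates several times over. Summed over a group and scaled, the controls held 7.64 times the level of the MSNP libraries, with a 95% counting interval of 3.47 to 19.9 from 56 against 7 counts. This interval leaves out variation between libraries, and Control replicate 3 gave 32 of the 56 counts. The edgeR test of Il1b with MSNPs against the controls just missed the threshold (log2 fold change -2.85, SE 0.99, adjusted p = 0.0515). It passed with DESeq2 (adjusted p = 0.00872) and did not without Control replicate 3 (-2.29, adjusted p = 0.129), and over all alternatives the adjusted p ran from 0.00872 to 0.149. The other 3 treated groups gave -0.32 with SNP100, -1.39 with SNP50 and 0.32 with HMSNPs (95% interval -1.08 to 1.73), and none of these passed.

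Counted together, 6 of the 9 tested genes passed the edgeR test with MSNPs, where 22.8% of all tested genes did (11.8% higher and 11% lower). Nek7, Aim2 and Casp4 rose, and Nlrp3, Gsdmd and Il18 fell. With HMSNPs 1 of 9 passed, Nlrp3, against 5.16% of all genes. With SNP100 0 of 9 passed, against 0.912%. Before adjustment 2 lay under 0.05, Aim2 and Il18. Over all tested genes, 1398 had an unadjusted edgeR p no higher than that of Il18 (0.0284). With SNP50 0 of 9 passed, against 1.41%. Before adjustment only Aim2 lay under 0.05, and 1381 of all tested genes had an edgeR p no higher than its 0.0199. Aim2 was called by DESeq2 with either nonporous particle. The median log2 fold change of the 9 genes was -0.23 with MSNPs and 0.14 with HMSNPs, beside -0.05 and -0.04 over all tested genes, and it was -0.07 with either nonporous particle. When Control replicate 3 was left out, 6 of 9 passed with MSNPs beside 29.5% of all genes, 1 with HMSNPs beside 8.66%, 1 with SNP100 beside 5.16% and 2 with SNP50 beside 18.9%. All 4 comparisons share the same controls.

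**Figure D3:**
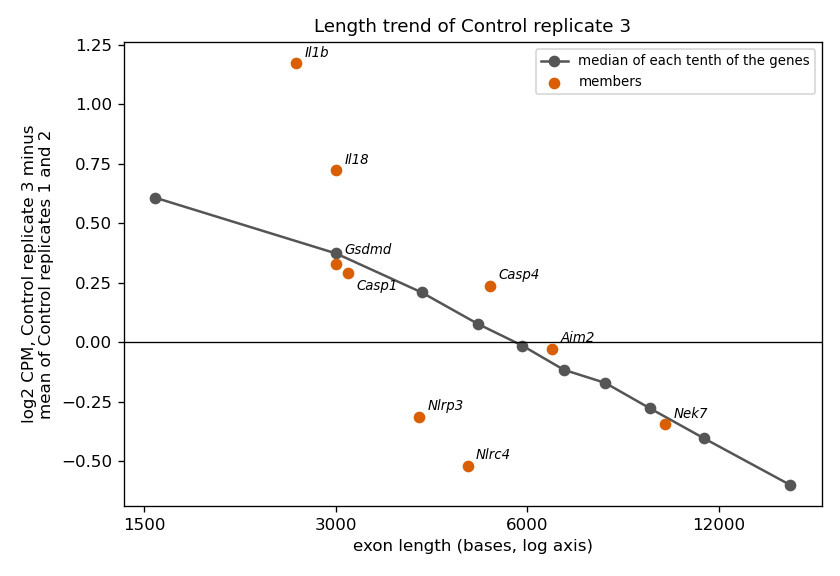
Deviation of Control replicate 3 from the mean of Control replicates 1 and 2, in log2 CPM on the y axis, against exon length in bases on a log x axis. The line joins the medians of 10 length classes, from 0.61 for the shortest genes to -0.60 for the longest, and the orange points are the 9 tested genes. Il1b and Il18 lie at 1.17 and 0.72, above the line, and Nlrp3 and Nlrc4 at -0.31 and -0.52, below it.

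The mesoporous and hollow particles were given at the same dose by mass and the same nominal size. They were compared directly, though they also differ in density and surface, and equal mass need not mean equal particle number or uptake. Of the 9 genes 5 differed, where 20.2% of all tested genes did. HMSNP libraries held 2.13 times the Nlrp3 level of MSNP libraries, 142 ± 6.35 against 66.6 ± 1.36 CPM (SD, n = 3, log2 difference 1.09, SE 0.0892, edgeR adjusted p = 2.74e-07). Il18 was also higher with HMSNPs, at 8.0 ± 0.297 against 3.62 ± 0.331 CPM (1.145, adjusted p = 0.000114). Aim2 was lower, at 60.9 ± 1.02 against 76.2 ± 2.18 CPM (-0.32, adjusted p = 0.000379), and so was Casp4, at 7.45 ± 0.639 against 10.6 ± 0.98 CPM (-0.50, adjusted p = 0.00594). All 4 calls held in every alternative. HMSNP and MSNP libraries did not overlap in these 4 genes, nor in Il1b and the uncalled Nlrc4, 6 of 9 in all. The share of all tested genes without overlap was not counted. Il1b differed by 3.17 (edgeR adjusted p = 0.0277), and its summed counts, 75 against 7, gave a ratio of 9.38 with a counting interval of 4.34 to 24.1. That interval leaves out variation between libraries, and HMSNP replicate 2 gave 50 of the 75 counts. The Il1b call was lost without HMSNP replicate 2 (2.16, adjusted p = 0.167) or without MSNP replicate 1 (0.0658), 2 (0.0803) or 3 (0.1). The remaining genes did not pass. The differences were 0.57 for Nlrc4 (95% interval 0.06 to 1.08, adjusted p = 0.116), -0.07 for Nek7 (-0.26 to 0.12), 0.02 for Casp1 (-0.14 to 0.19) and 0.08 for Gsdmd (-0.12 to 0.27).

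MSNPs and SNP100 share a nominal diameter but not a dose. With MSNPs Nlrp3 was lower (log2 difference -0.59, edgeR adjusted p = 0.000179), Il18 was lower (-0.89, adjusted p = 0.0014) and Casp4 was higher (0.55, adjusted p = 0.00374), which makes 3 of 9 genes beside 17.9% of all tested genes. In a fit lacking Control replicate 3, a library of neither group, 6 of 9 passed beside 33.1% of all genes, with Nek7 (0.19), Casp1 (0.17) and Gsdmd (-0.24) added. SNP50 and SNP100 differ in both diameter and dose, and 0 of 9 genes differed between them, as for all tested genes (0% called). None lay under 0.05 even before adjustment, and DESeq2 called 0 as well. The lowest unadjusted edgeR p, 0.0517 for Nek7, ranked 897 among all tested genes. The differences ranged from -1.06 for Il1b to 0.11 for Gsdmd, and the interval for Nlrp3 was -0.18 to 0.20.

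The order of the 5 groups differed from gene to gene. Nlrp3 had 3 separate levels, with HMSNP on top, SNP50, SNP100 and the controls overlapping in the middle, and MSNP at the bottom. For Il18 MSNP was lowest and apart from the other 4 groups. HMSNP was above SNP50 and SNP100 without overlap, and the wide range of the controls overlapped all 3. For Casp4 only MSNP was apart, above the other 4 groups. Aim2 was highest with MSNP, SNP100 and SNP50, in that order, with overlap between neighbours but not between MSNP and SNP50, then came the controls and then HMSNP. Gsdmd was lower in the mesoporous groups, which overlapped each other, than in SNP100, the next group in the order. For Nlrc4 and Casp1 every group overlapped its neighbour in the order.

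Other genes of the pathway were taken from a list of 58 arranged by role, of which 51 could be tested. With MSNPs 23 of the 51 passed, 10 higher and 13 lower, beside 22.8% of all tested genes. With HMSNPs 7 passed, 5 higher and 2 lower, beside 5.16%. With SNP100 and SNP50 0 passed in edgeR, beside 0.912% and 1.41%. DESeq2 called 3 and 2, its share over all genes not being given here. Before adjustment 13 and 12 were under 0.05. Over all tested genes, 3156 had an unadjusted edgeR p of 0.0895 or less with SNP100, and 2435 one of 0.052 or less with SNP50. Leaving out Control replicate 3 gave 31 with MSNPs beside 29.5% of all genes, 14 with HMSNPs beside 8.66%, 8 with SNP100 beside 5.16% and 12 with SNP50 beside 18.9%. The median log2 fold change of the 51 genes was -0.17 with MSNPs and 0.13 with HMSNPs.

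Among the antagonists and receptors of the IL-1 family, Il1rn and Il18rap changed most of those called. Il1rn encodes the IL-1 receptor antagonist, which blocks IL-1 signaling. It was at 50.2, 52.9 and 49.6 CPM in the controls and at 292, 277 and 271 CPM in the MSNP libraries, a rise of 2.46 (SE 0.0641, edgeR adjusted p = 2.63e-12). The HMSNP libraries held 47.5, 52.2 and 48.0 CPM, with 2 libraries just below the controls. Il18rap, the signaling chain of the IL-18 receptor, was at 49.1, 57.9 and 32.9 CPM in the controls and at 9.52, 9.63 and 8.54 CPM in the MSNP libraries (log2 fold change -2.34, SE 0.158, adjusted p = 3.19e-08). Il1rl1, the receptor for IL-33, fell from 60.7 ± 15.3 to 34.1 ± 1.27 CPM (SD, n = 3, adjusted p = 0.000271) with MSNPs and stood at 83.4 ± 2.97 CPM with HMSNPs, which did not pass (adjusted p = 0.0605). It passed in 6 alternatives, among them DESeq2 (0.0227) and the fits without Control replicate 2 (0.00474) or 3 (0.0151). Without Control replicate 3, Il18rap was also called with SNP100 (-0.47), SNP50 (-0.57) and HMSNPs (-0.50), and Il1rl1 with SNP100 (-0.45) and SNP50 (-0.56).

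The IL-1 receptors themselves were almost absent. Il1r1 had 0 to 7 counts and the decoy receptor Il1r2 0 to 3 counts per library, and Il1a, the other IL-1 cytokine, had 0 to 4. Il18bp, which neutralizes IL-18, had 31 to 58 counts and did not pass with MSNPs (0.31, adjusted p = 0.361) or HMSNPs (0.01). Over the whole group of 11 tested IL-1 family genes, 1 rose and 2 fell with MSNPs (27.3%, beside 22.8% of all tested genes). With HMSNPs 0 passed, and 2 had an unadjusted edgeR p under 0.05, as had at least 3784 of all 19839 tested genes.

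**Figure D4:**
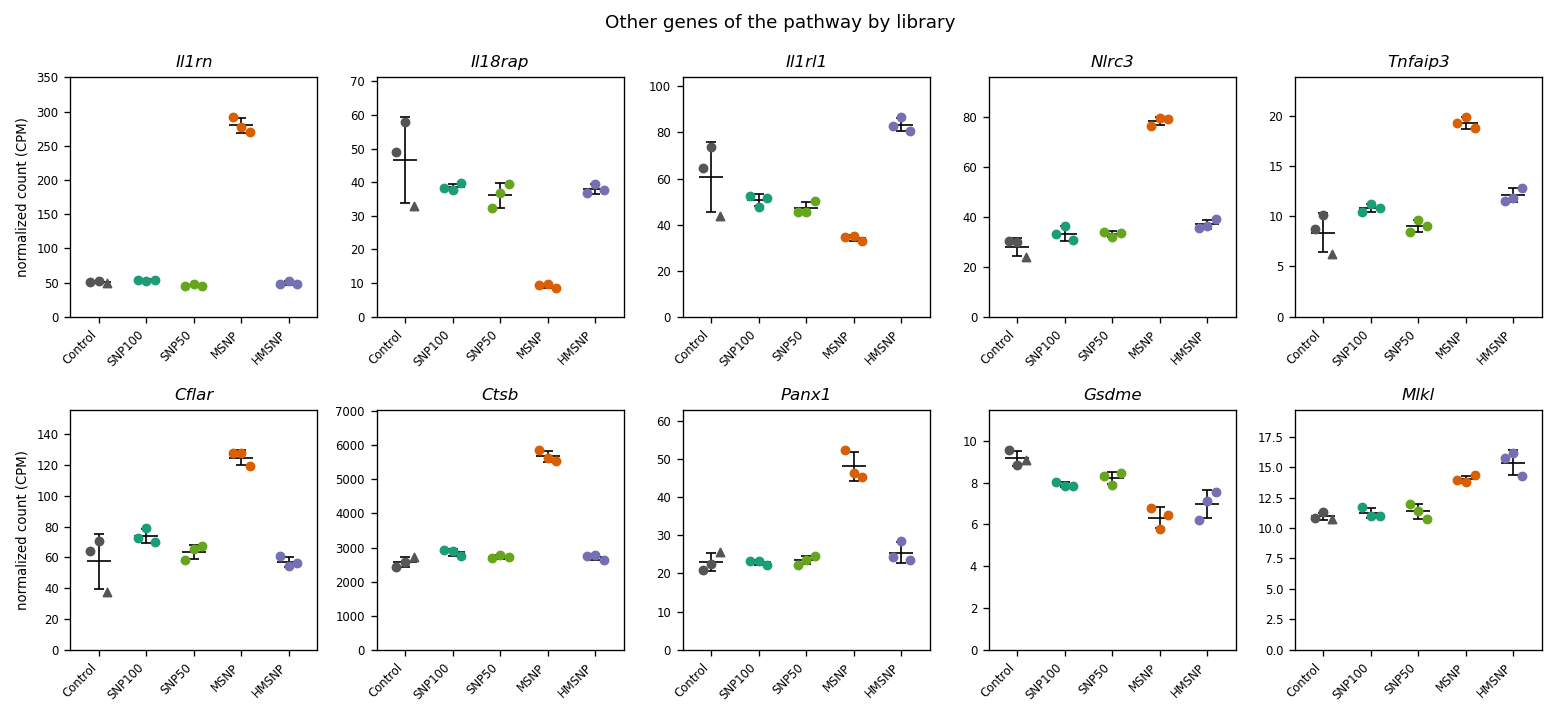
Levels of 10 other genes of the pathway in every library, in CPM on linear axes that start at 0, by group. Points are libraries, the triangle is Control replicate 3, and bars give the mean ± SD of 3 libraries. MSNP libraries are highest for Il1rn (271 to 292 CPM), Nlrc3, Tnfaip3, Cflar, Ctsb and Panx1 and lowest for Il18rap (8.54 to 9.63 CPM) and Il1rl1, while HMSNP libraries are highest for Il1rl1.

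Of 9 tested inhibitors 5 rose and 1 fell with MSNPs, beside 11.8% higher and 11% lower over all tested genes. Nlrc3, a sensor relative that dampens inflammatory signaling, was at 30.3, 29.9 and 23.8 CPM in the controls and 76.4, 79.4 and 79.0 CPM in the MSNP libraries (1.48, SE 0.092, edgeR adjusted p = 1.16e-08). Tnfaip3, the ubiquitin-editing enzyme A20, rose from 8.38 ± 1.97 to 19.3 ± 0.566 CPM (SD, n = 3, adjusted p = 4.52e-06), and Cflar, the caspase-8 inhibitor cFLIP, from 57.3 ± 17.7 to 125 ± 4.88 CPM (adjusted p = 0.000105). With HMSNPs 4 inhibitors rose and 0 fell, beside 5.16% of all genes called in either direction. Nlrc3 rose by 0.41 (adjusted p = 0.0182) and Tnfaip3 by 0.53 (adjusted p = 0.0287), and Cflar was level with the controls (0.00) but lower without Control replicate 3 (-0.24, adjusted p = 0.045). The Nlrc3 call was lost without any 1 of the HMSNP replicates (adjusted p = 0.0503, 0.0565 and 0.0854), and that of Tnfaip3 without any of them (0.079, 0.0798 and 0.111) or without MSNP replicate 1 or 2 (0.0511 and 0.0514). Chosen after their values were seen, Birc3, a ubiquitin ligase that blocks cell death, fell with MSNPs (-0.42) and was higher with HMSNPs (0.38, adjusted p = 0.0377). That HMSNP call held in only 2 of 15 fits that left out 1 library, those without Control replicate 2 or 3, and the adjusted p was 0.0503 to 0.139 in the others. Serpinb1a, a protease inhibitor, had only 4 counts over the controls, against 34 with MSNPs and 27 with HMSNPs, ratios of 8.90 (counting interval 3.18 to 34.5) and 6.19 (2.16 to 24.4). These intervals leave out variation between libraries. Its HMSNP call was lost without HMSNP replicate 1 (edgeR adjusted p = 0.0652) and in a fit of 6 libraries (0.154).

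Upstream of the sensors, Ctsb, the lysosomal protease cathepsin B, was at 2427, 2578 and 2718 CPM in the controls and 5861, 5638 and 5532 CPM in the MSNP libraries (1.14, SE 0.0578, edgeR adjusted p = 1.26e-09). Panx1, a membrane channel that releases ATP, went from 20.8, 22.5 and 25.6 CPM to 52.3, 46.4 and 45.3 CPM (1.06, SE 0.0946, adjusted p = 6.24e-07). Neither passed with HMSNPs (0.08 and 0.14). Clic1, a chloride channel protein, fell by 0.54 with MSNPs (adjusted p = 0.00514) and by 0.30 without Control replicate 3, in which it was at 772 CPM against 505 and 512 CPM in the other 2 controls. In all, 2 of 7 upstream genes rose and 1 fell with MSNPs, beside 22.8% of all tested genes called. Txnip, which was chosen after its values were seen and binds NLRP3, was the only one called with HMSNPs (-0.35, adjusted p = 0.00178). That call was lost with an offset for transcript length (-0.23, adjusted p = 0.0525) and in a fit of 6 libraries (0.218).

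Of 10 positive regulators 1 rose and 3 fell with MSNPs, beside 11.8% higher and 11% lower over all tested genes. With HMSNPs 0 passed (5.16% of all genes), and 2 had an unadjusted edgeR p under 0.05, as had at least 3784 of all tested genes. With MSNPs the kinase Syk rose from 122 ± 30.2 to 243 ± 6.86 CPM (SD, n = 3, edgeR adjusted p = 2.8e-05). Zbp1, a sensor of Z-form nucleic acids, fell from 1.34 ± 0.175 to 0.428 ± 0.145 CPM (adjusted p = 0.000142), and Myd88, the adaptor of Toll-like and IL-1 receptors, from 118 ± 8.82 to 83.8 ± 2.35 CPM (adjusted p = 3.3e-05). DESeq2, unlike the main fit, also called Myd88 lower with SNP100 (adjusted p = 0.00329), SNP50 (0.000634) and HMSNPs (0.0469). Without Control replicate 3, edgeR called it with SNP100 (0.0407) and SNP50 (0.00805). Of 7 other sensors 1 passed with MSNPs (14.3%, beside 22.8% of all tested genes) and 0 with HMSNPs, where none had an unadjusted p under 0.05. Their median log2 fold change was 0.01 with MSNPs and 0.42 with HMSNPs. That one was Mefv, named after its values were seen, with 16 counts over the controls and 1 over the MSNP libraries. Reads of the Naip genes may be split among near-identical copies, so their counts are uncertain.

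Among other caspases and pore proteins 1 of 7 rose and 5 fell with MSNPs, beside 11.8% higher and 11% lower over all tested genes. Gsdme, another pore-forming gasdermin, fell with MSNPs by 0.54 (edgeR adjusted p = 0.000415) and with HMSNPs by 0.39 (0.0199). The latter call was lost without HMSNP replicate 1 (adjusted p = 0.129) or 2 (0.0626) or Control replicate 1 (0.0584). Mlkl, the effector of necroptosis, rose with both, by 0.35 (adjusted p = 0.0025) and 0.49 (0.00115). Ninj1, which ruptures the membrane after pore formation, was at 128 ± 28.9 CPM in the controls, 149.8 ± 4.27 with MSNPs and 111 ± 8.32 with HMSNPs, and passed in neither comparison (adjusted p = 0.197 and 0.273). Control replicate 3 held 162 CPM against 113 and 110.5 CPM in the other 2 controls, and without it the MSNP difference was 0.43 and passed (adjusted p = 2.09e-05).

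Between HMSNPs and MSNPs, 28 of the 51 genes differed, 18 higher and 10 lower with HMSNPs, beside 20.2% of all tested genes. Il18rap (2.04) and Il1rl1 (1.29) were higher with HMSNPs. Il1rn (-2.51), Cflar (-1.13), Nlrc3 (-1.08), Ctsb (-1.06), Panx1 (-0.92) and Ninj1 (-0.43) were lower. The edgeR adjusted p of these 8 differences was at most 0.0149, and only the call of Ninj1 changed in an alternative, without HMSNP replicate 1 (0.0568) or 3 (0.0559). Mlkl (0.14) and Gsdme (0.14) did not differ beyond the threshold, with intervals of -0.02 to 0.29 and -0.05 to 0.34.

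For each gene called against the controls, the 2 protein-coding genes most like it over the 15 libraries were found by Pearson r of log2 CPM among 10466 genes, as a description that also reflects shared libraries and the length trend of Control replicate 3. Nlrp3 was most like Mef2c (0.977) and Dab2 (0.973). Their fitted changes were -0.84 and -0.65 with MSNPs and 0.67 and 0.65 with HMSNPs. These opposite signs follow from picking genes by likeness over the same libraries. Il18 was most like Hfe (0.9751) and Bin3 (0.972), Casp4 like Mcl1 (0.924) and Spryd7 (0.919), and Aim2 like Slc26a11 (0.932) and Slc27a1 (0.932). Nek7 was closest to Sacm1l (0.977) and Gmfb (0.977), and Gsdmd to Mri1 (0.9754) and Irf3 (0.972).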

How the data were processed

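Poly(A) RNA of RAW 264.7 cells was sequenced in 15 libraries, 3 for each of 5 groups assigned from the sample labels. Doses and nominal sizes came from the study's methods, and the exposure time of 6 h is in the sample labels. The authors deposited raw counts per gene, neither normalized nor pooled, as whole numbers. The submitters' processing notes name cutadapt 1.16, STAR 2.7.9a, featureCounts 1.6.3 and GRCm39. The annotation, the strand setting and whether reads or pairs were counted are not given in the sources used here. Overlapping antisense genes are therefore named where they matter.

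Symbols and positions came from GENCODE vM39 on GRCm39, which matched 56630 of 57186 identifiers, and 2 symbols of the pathway list, Pydc3 and Pydc4, found no match. Genes with at least 10 counts over all libraries were tested, which kept 19839 of them, and 30400 had 0 counts throughout. Library totals of 29369934 to 42617812 put 3 counts at 0.0687 to 0.101 CPM. The counts were fitted in R 4.3.3 with edgeR 4.0.16 (TMM, quasi-likelihood test, one model of 15 libraries, no block), with Benjamini-Hochberg adjustment over all tested genes and a threshold of 0.05. Each SE was the fitted log2 change over the root of its F statistic, and intervals at 95% from the t quantile. Counting intervals of ratios are exact binomial and cover counting error only.

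The 10 genes, the pathway list and the tests were chosen with earlier results of these data known. Named pathway genes were, per role, up to 3 with the largest called change with MSNPs or HMSNPs and at least 1 CPM in some group, plus Il1r1, Il1r2, Il1rn, Il18bp, Gsdme, Ninj1 and Il1a. Others are stated as chosen later. One gene that the rule selects is not reported here. The alternatives were DESeq2 1.42.0, RLE factors, filterByExpr, no filter, fits limited to 6 libraries, a block for replicate number, an offset for transcript length (lowess, span 0.3), that offset without Control replicate 3, and leaving out each library. The alternatives for named pathway genes and for HMSNPs against MSNPs in those genes, and the shares of all genes without Control replicate 3, were added after seeing the data. The fit was also run on simulated counts with the same spread in every group and no length trend. That run does not cover the wider spread of the controls or the length trend of Control replicate 3. Promoter windows were read from the GRCm39 genome.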

Additional observations from a re-analysis of the deposited data

Results flagged for a closer look

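For 2 of the 9 tested genes, Nlrp3 and Aim2, the effects of the mesoporous and the hollow mesoporous particles, both taken against the same nontreated controls at the same dose, had opposite signs, at least 1 of them passed against the controls, and the treated groups differed in the direct test. Il1b also had opposite signs (-2.85 with MSNPs and 0.32 with HMSNPs) and differed in the direct test (edgeR adjusted p = 0.0277), but passed against the controls with neither particle. Nlrp3 was 1.09 higher on the log2 scale in the HMSNP libraries than in the MSNP libraries (SE 0.0892, edgeR adjusted p = 2.74e-07), with log2 fold changes of 0.53 and -0.56 against the controls, both past the threshold. All 3 HMSNP libraries were above all 3 controls, and all 3 MSNP libraries were below them.

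Aim2 was lower in the HMSNP libraries, with a log2 difference of -0.32 from the MSNP libraries (SE 0.0536, edgeR adjusted p = 0.000379). Its rise of 0.23 with MSNPs passed the threshold and its value of -0.09 with HMSNPs did not, although no HMSNP library overlapped the controls. Over the 15 fits that left out 1 library the Aim2 difference stayed between -0.34 and -0.30.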

How the results depend on the processing

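Of 1446 values of the 9 genes over 23 alternatives, 1391 kept their direction or stayed uncalled, 17 lost a call, 38 gained one, and 0 reversed while called, leaving out values to which DESeq2 gave no adjusted p. With MSNPs against the controls, 4 to 7 of 9 genes and 16 to 33 of 51 pathway genes were called, and between HMSNPs and MSNPs 4 to 6 of 9. DESeq2 called 1 of the 9 genes with SNP100, 1 with SNP50 and 5 between MSNPs and SNP100, and 3, 2 and 11 pathway genes with SNP100, SNP50 and HMSNPs. The filterByExpr filter called 1 pathway gene with SNP50. The length offset called 5 genes between MSNPs and SNP100 and 2 pathway genes with SNP50. That offset without Control replicate 3 called 1 gene with SNP100, 1 with SNP50 and 7 between MSNPs and SNP100, and 9, 16 and 14 pathway genes with SNP100, SNP50 and HMSNPs. Fits of 6 libraries called 0 genes and 0 pathway genes with HMSNPs and 7 genes between MSNPs and SNP100, and the MSNP calls of Mlkl, Clic1 and Birc3 were lost. Leaving out each library in turn gave 0 to 1 gene with SNP100, 0 to 2 with SNP50, 1 to 3 with HMSNPs (3 without Control replicate 2) and 3 to 6 between MSNPs and SNP100 (6 without Control replicate 3). For pathway genes it gave 0 to 8 with SNP100, 0 to 12 with SNP50 and 2 to 18 with HMSNPs, the highest without Control replicate 3 for the first pair and without Control replicate 2 for HMSNPs, the lowest for HMSNPs without HMSNP replicate 1. The cause of these shifts was not tested. The share of all tested genes called also moved with the setting, from 1.41% to 18.9% with SNP50 when Control replicate 3 was left out. For most of these fits that share is not given here, so the counts alone show nothing particular to these genes. Depth limits Il1b, Mefv, Serpinb1a and Il1r2, which had 3 or fewer counts in each library of at least 1 group, and also Il1r1 and Il1a, which were almost absent.

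With the replicate number as a block, 0, 0, 7 and 1 of the 9 genes were called with SNP100, SNP50, MSNPs and HMSNPs, and 3 and 5 between MSNPs and SNP100 and between HMSNPs and MSNPs. The share of all genes called under the block is not given here. The labels do not say what a shared number means. Over 30 pairs of libraries with the same number the deviations from the group means correlated from -0.517 to 0.573, with a median of 0.0156, 10 of 30 pairs were above 0.1, and 8 of 15 libraries correlated best with their own number. Over 60 pairs with different numbers the correlations ran from -0.758 to 0.716, with a median of -0.0148. Since these ranges overlap, the check cannot decide whether a shared number marks a pairing. The main fit had no block because the labels state no pairing. Under the block 22 and 6 pathway genes were called with MSNPs and HMSNPs, Il1b gained its MSNP call (adjusted p = 0.0372) and Birc3 lost its HMSNP call (0.0525).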

Other observations

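A few further genes of the pathway list, chosen after their values were seen, differed between the particles of equal dose without passing against the controls. P2rx7, the ATP-gated channel upstream of NLRP3, was at 43.4, 44.7 and 42.5 CPM with MSNPs and at 62.9, 63.5 and 64.0 CPM with HMSNPs (log2 difference 0.55, SE 0.143, edgeR adjusted p = 0.0123). Its controls overlapped both groups, at 59.7, 63.3 and 36.7 CPM, the last value being that of Control replicate 3. Il1rap, the shared accessory chain of IL-1 family receptors, was at 13.7, 13.95 and 11.7 CPM with MSNPs and at 20.3, 21.5 and 18.8 CPM with HMSNPs (0.62, SE 0.139, adjusted p = 0.00414), against 15.5, 18.4 and 11.8 CPM in the controls.

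Casp8, the initiator caspase that also acts upstream of gasdermin cleavage, was just inside the threshold with MSNPs (-0.17, adjusted p = 0.05, edgeR) and differed by 0.38 between HMSNPs and MSNPs (adjusted p = 0.000212). The ligand-binding chain of the IL-18 receptor, Il18r1, did not exceed 0.27 CPM in any library, while its partner Il18rap reached 57.9 CPM.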
